A study of Mus musculus with 12 samples.

Results

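Janus kinases, the STAT3 and STAT5 transcription factors and the SOCS family of inhibitors were followed through 3 stages of early T cell development in mouse thymus. The members were all probe sets annotated with the single symbol Jak1, Jak2, Jak3, Stat3, Stat5a, Stat5b, Socs1, Socs2, Socs3 or Cish. That rule took 25 of the 45101 probe sets on the array, covering 10 genes, and itself used no measured value. The 10 genes were, however, chosen with earlier results of these data known. Of these 25 probe sets, 22 were bright enough to be tested, lying above a signal of 20.6 (the median of the table) on at least 4 arrays; the other 3 all belonged to Socs2.

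Double-negative (DN) thymocytes, which carry neither CD4 nor CD8, were sorted as DN2 (CD44+ CD25+), DN3 (CD44- CD25+) and DN4 (CD44- CD25-) cells from female C57BL/6 mice aged 5 to 6 weeks. There were no mutants and no treatment. All 3 groups were depleted of CD4+ and CD8+ cells and were sorted as negative for a set of lineage markers, namely CD3, TCRgamma-delta and NK1.1 besides CD4 and CD8. Each of 4 independent sorts pooled the thymocytes of 4 mice and gave 1 array per stage, so the 12 arrays held 4 per stage, with all 3 stages of a sort sharing their mice. RNA went through a 2-cycle cDNA amplification before hybridization to an Affymetrix whole-genome array, and the values are probe set signals brought to a common scale by quantile normalization.

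Cytokine receptors have no kinase of their own. Janus kinases bound to their tails phosphorylate the receptor and then STAT proteins, which enter the nucleus and switch on target genes; among those targets are SOCS genes and Cish, whose products restrain the same receptors. In the thymus, interleukin 7 signals through JAK1, JAK3 and STAT5 to sustain DN2 and DN3 cells.

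STAT dimers bind sites that read TTCNNNGAA, a motif that is its own reverse complement in form, so that both strands give the same matches. Cish and Socs3 had it within 250 bases before to 50 bases after an annotated start in the RefSeq promoter table (GRCm38.p6). Their windows are shown because they were the member windows with a match. The capitals mark the motif. The Cish window is chr9:107296409-107296708 on the plus strand, and the Socs3 window is chr11:117969317-117969616 on the minus strand.
Cish: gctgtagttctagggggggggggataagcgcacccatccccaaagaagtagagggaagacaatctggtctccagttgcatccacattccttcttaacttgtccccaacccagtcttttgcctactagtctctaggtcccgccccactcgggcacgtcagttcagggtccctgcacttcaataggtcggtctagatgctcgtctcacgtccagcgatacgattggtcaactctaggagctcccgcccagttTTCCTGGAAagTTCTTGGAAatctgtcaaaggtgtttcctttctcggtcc
Socs3: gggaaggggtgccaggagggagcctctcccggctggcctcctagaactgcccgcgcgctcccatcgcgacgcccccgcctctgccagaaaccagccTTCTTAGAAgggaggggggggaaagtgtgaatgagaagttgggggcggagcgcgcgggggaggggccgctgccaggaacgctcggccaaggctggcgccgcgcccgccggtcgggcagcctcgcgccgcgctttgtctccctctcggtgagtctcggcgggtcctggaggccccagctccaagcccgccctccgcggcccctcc
Cish held 2 matches, TTCCTGGAA and TTCTTGGAA, beginning at the start site (+1) and at +12, while Socs3 held 1, TTCTTAGAA, beginning at -154. The whole Socs3 window lies inside the annotated span of the gene (117966079 to 117970336), so -154 is counted from a start within that span. The table had 11 windows for 9 of the 10 members, and 9 of the 11 had no match. Of all 32851 windows in the table, 8.30% had at least 1 match and 0.457% at least 2. A match is a description of the letters, not a measured binding site.

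The sorted stages carried their markers. Kit and Cd44, which mark the earlier cells, were lower in DN3 than in DN2 cells (log2 differences of -1.86 ± 0.19 and -3.69 ± 0.32, SE), Ptcra and Rag1 were higher in DN3 than in DN2 cells (2.46 ± 0.36 and 2.17 ± 0.15), and Il2ra, which encodes CD25, was lower in DN4 than in DN3 cells (-3.56 ± 0.22). Of the genes for the co-receptors used in depletion and sorting, Cd4 stayed under the filter level in all 3 stages, while Cd8a averaged 9.27, 27.9 and 152 and Cd8b1 3.79, 18.3 and 313 in DN2, DN3 and DN4 cells. Both were higher in DN4 than in DN3 cells (2.32 ± 0.36 and 3.77 ± 0.30, adjusted p = 0.00179 and 2.07e-05), and the part of this rise in the DN4 results below was not tested. Deposited signals were dimmer in DN4 arrays, with median signals of 15.2 to 18.1 in DN4 and 19.8 to 25.8 in DN3 (p = 0.0286 in an exact two-sided permutation test of their log2 values, which can go no lower with 4 arrays a stage, and 0.171 adjusted over 12 such tests). Replicates of a stage correlated at 0.960 to 0.974 and no 2 arrays were identical.

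Signals below are normalized and given for sorts 1, 2, 3 and 4 in that order. Differences are of log2(signal + 5.57), later stage minus earlier, with the standard error of limma's moderated fit over all 12 arrays; adjusted p-values are Benjamini-Hochberg over the 20357 probe sets tested in each comparison, and 0.05 is the threshold for a call. Folds are ratios of signal + 5.57. The offset shrinks the differences of dim probe sets. Probe sets differ in affinity, so levels of different genes are not set against each other.

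Between DN3 and DN2 cells, 3 of the 22 tested member probe sets were lower and 0 higher, where 8.01% of all probe sets were called in either direction, 4.37% lower and 3.64% higher. Between DN4 and DN3 cells 5 were lower and 0 higher, against 12.5% called in all, 7.29% lower and 5.19% higher. Between DN4 and DN2 cells 6 were lower and 1 was higher, against 29.9% called in all, 13.8% lower and 16.1% higher. The members' 7 calls between DN4 and DN2 thus lay near the background in number, with more of them lower, and probe sets of 1 gene do not count as independent. The median difference of the 22 was -0.41 there and that of all probe sets 0.07; it was -0.27 against 0.04 between DN4 and DN3 and -0.09 against 0.03 between DN3 and DN2. By brightest probe set, 1, 2 and 3 of the 10 genes were called in the 3 comparisons, all lower. Of all genes, 9.46%, 14% and 32.5% were called in either direction, 5.56%, 8.07% and 15.9% lower, and 3.9%, 5.98% and 16.7% higher. The members' share lay near the background in either direction. It lay above the background of lower calls, but 10 genes are too few to read a difference from that. Without normalization between arrays, 12 members were lower between DN4 and DN3 and 13 between DN4 and DN2 cells, and 1.2% of all calls between DN4 and DN3 were higher, against 41.6% with it.

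**Figure D1:**
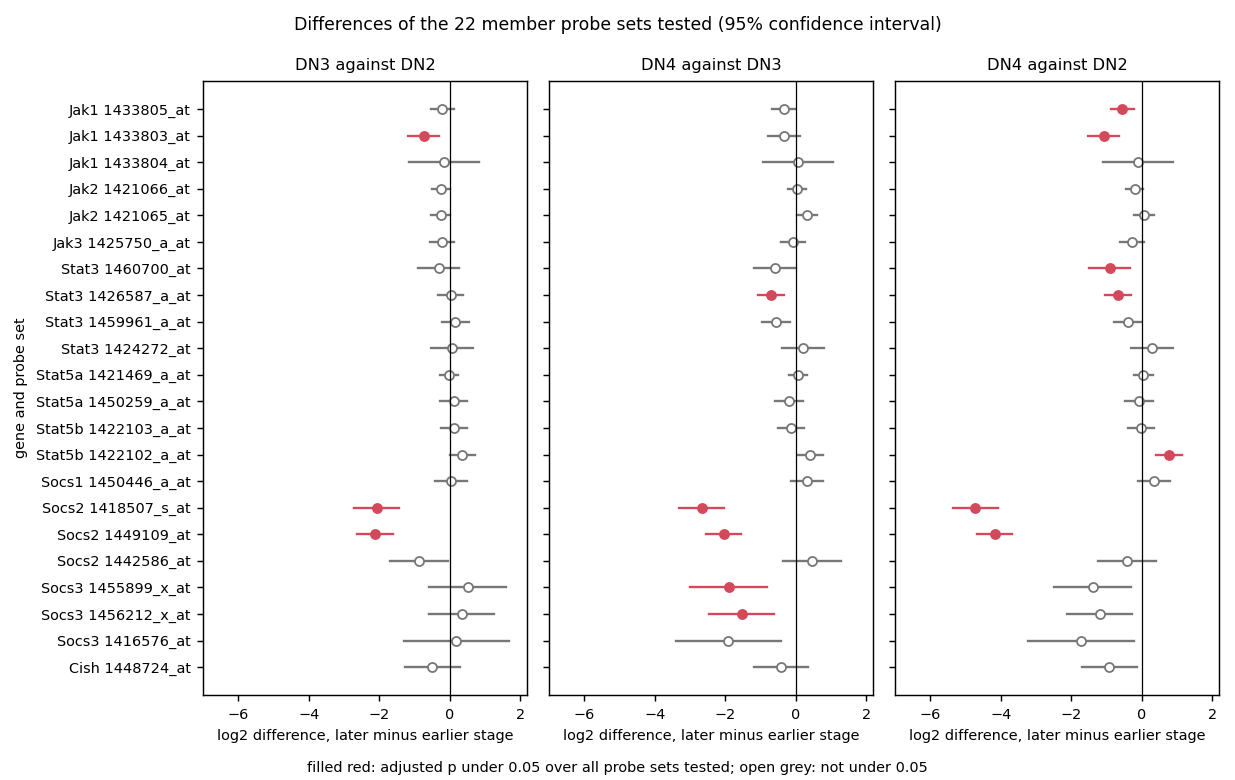
Log2 differences of the 22 tested probe sets, later stage minus earlier, with 95% confidence intervals, in 3 panels; filled red points passed the adjusted threshold and open grey points did not. The Socs2 pair lies far to the left in all 3 panels, down to -4.73 between DN4 and DN2, and Stat5b 1422102_a_at is the 1 point called on the right.

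Among the kinases, Jak1 (chromosome 4, 101151974 to 101265282), which pairs with most receptors of the interleukin 2 and interferon families, was lower in DN4 than in DN2 cells on 2 of its 3 probe sets. The brightest, 1433805_at, gave signals of 1614, 1836, 1355 and 1325 in DN2 cells, 1438, 1470.2, 1334 and 1033 in DN3 cells and 1169, 993, 998 and 964 in DN4 cells. All 4 DN4 arrays lay below all 4 DN2 arrays, while DN3 arrays overlapped both. The DN4 minus DN2 difference was -0.56 ± 0.15 (adjusted p = 0.0149), 1.47-fold lower. In bulk samples, less RNA per cell and fewer cells that carry the RNA cannot be told apart.

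Probe set 1433803_at of Jak1 gave 1140.1, 1046, 876 and 754 in DN2 cells, 426, 637, 690.4 and 525 in DN3 cells and 334, 466, 589.6 and 412 in DN4 cells. DN2 arrays stood clear of all others, and DN4 overlapped DN3. The difference was -1.09 ± 0.21 between DN4 and DN2 cells (adjusted p = 0.00201) and -0.74 ± 0.21 between DN3 and DN2 cells (adjusted p = 0.0450). The DN3 call was narrow: it held in 8 of 26 alternative settings, and 8 of the 12 single arrays ended it when left out, namely DN2 arrays 1, 2 and 3, DN3 arrays 1, 2 and 4 and DN4 arrays 2 and 4, with values of -0.81 to -0.62 and adjusted p of 0.0591 to 0.125. The remaining Jak1 probe set, 1433804_at, lay at 29.7 to 107 over the 12 arrays and was not called, with a DN4 minus DN2 interval of -1.11 to 0.89. Between DN4 and DN3 cells no Jak1 probe set was called (-0.34 ± 0.15, adjusted p = 0.157 on the brightest); with the sort as a block the brightest was, at -0.34 with an adjusted p of 0.0456.

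Jak2 (chromosome 19, 29251803 to 29313095), the kinase of hormone-type receptors such as those for erythropoietin and growth hormone, was not called in any comparison. Its brighter probe set gave 529, 623, 549 and 549.5 in DN2 cells, 515, 502, 451 and 430.4 in DN3 cells and 465, 559, 463 and 461 in DN4 cells. DN2 arrays lay just above all DN3 arrays, yet the DN3 minus DN2 difference of -0.24 ± 0.12 had an adjusted p of 0.248. The other Jak2 probe set, 1421065_at, was higher on all 4 DN4 arrays (204 to 265) than on all DN3 arrays (167 to 199), with a difference of 0.32 ± 0.13 that did not pass (adjusted p = 0.118). Between DN4 and DN2 cells the pair gave values of opposite sign, -0.21 ± 0.12 and 0.07 ± 0.13, neither of which passed (adjusted p = 0.200 and 0.737).

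Jak3 (chromosome 8, 71676383 to 71690577), the partner of the common gamma chain, had 1 probe set under the rule, with 186, 185, 151 and 119 in DN2 cells, 125, 158, 126 and 135 in DN3 cells and 138, 143, 115 and 118 in DN4 cells. The stages overlapped. Its DN4 minus DN2 difference was -0.29 ± 0.16 with an interval of -0.63 to 0.05 (adjusted p = 0.179), lower in 4 of 4 sorts, and without DN2 array 4 it passed at -0.42 (adjusted p = 0.0470). A probe set annotated to both Jak3 and its neighbour Insl3, left out by the rule, was lower in DN4 than in DN2 cells (-0.84 ± 0.27, adjusted p = 0.0343) in a fit of the same kind.

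**Figure D2:**
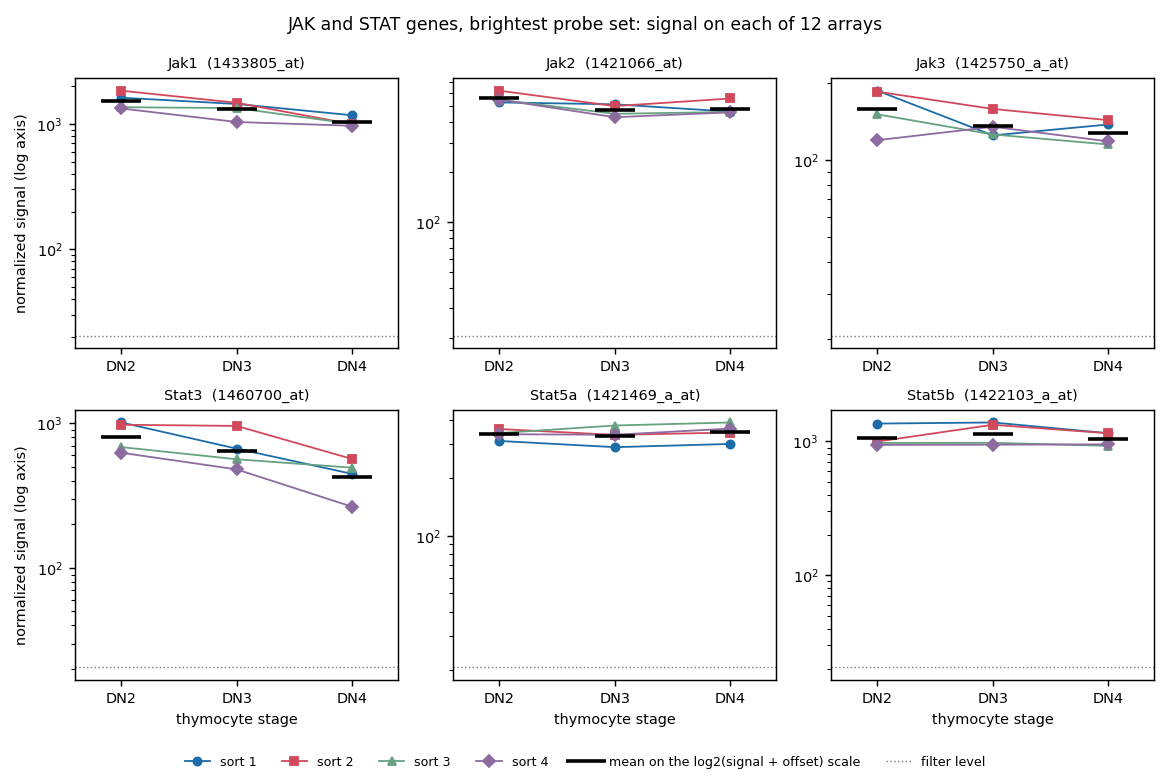
Normalized signal (log axis) of the brightest probe set of Jak1, Jak2, Jak3, Stat3, Stat5a and Stat5b in DN2, DN3 and DN4 cells; each coloured line joins the arrays of 1 sort, black bars are means of log2(signal + 5.57) and the dotted line is the filter level of 20.6. Jak1 and Stat3 slope down to DN4 in every sort, while Stat5a and Stat5b have no call on these probe sets.

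Stat3, Stat5a and Stat5b lie side by side on chromosome 11 (Stat5b 100780731 to 100859004, Stat5a 100859351 to 100885169, Stat3 100886806 to 100939594). Stat3, the factor downstream of interleukin 6 and interleukin 10 receptors, was called lower on 2 of its 4 probe sets. Its brightest probe set, 1460700_at, had 1012, 976, 684 and 625 in DN2 cells, 667, 957, 563 and 479 in DN3 cells and 446, 566, 493 and 265 in DN4 cells. Every DN4 array was below every DN2 array, and the difference was -0.91 ± 0.27 (adjusted p = 0.0233), 1.88-fold lower.

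Stat3 probe set 1426587_a_at gave 676, 792, 655 and 622 in DN2 cells, 756, 904, 658 and 514 in DN3 cells and 471, 446, 407 and 379.6 in DN4 cells. DN4 arrays stood below all DN3 and all DN2 arrays, and those of DN2 and DN3 overlapped. The DN4 minus DN3 difference was -0.70 ± 0.17 (adjusted p = 0.0178) and the DN4 minus DN2 difference -0.68 ± 0.17 (adjusted p = 0.00899), whereas DN3 minus DN2 was 0.02 ± 0.17. On 1460700_at the DN4 minus DN3 difference was -0.59 ± 0.27 and did not pass (adjusted p = 0.174), but passed with the sort as a block (adjusted p = 0.0190).

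Another Stat3 probe set, 1459961_a_at, also separated DN4 (97.1 to 127) from DN3 (131 to 186), at -0.56 ± 0.18 and an adjusted p of 0.0595, which missed the threshold. The fourth, 1424272_at, was dim, passed on 9 of 12 arrays and showed no call. Single arrays mattered for Stat3. The call of 1426587_a_at between DN4 and DN3 was lost without DN3 array 2 (-0.58, adjusted p = 0.0526) or DN4 array 4 (-0.64, 0.0540). That of 1460700_at between DN4 and DN2 was lost without DN2 array 1 (-0.81, 0.0662), DN2 array 2 (-0.82, 0.0617) or DN4 array 4 (-0.68, 0.0653). Conversely, 1459961_a_at passed between DN4 and DN3 without DN2 array 1, DN2 array 2 or DN3 array 4 (adjusted p = 0.0466, 0.0335 and 0.0434), and between DN4 and DN2 without DN2 array 2 (-0.55, 0.0287).

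Stat5a, one of the pair of STAT5 genes that act downstream of interleukin 7, showed no call. Its brighter probe set gave 312, 361, 343 and 339 in DN2 cells, 289.8, 336, 376 and 336 in DN3 cells and 301, 346, 390.0 and 362 in DN4 cells. The 3 stages overlapped throughout. The DN4 minus DN2 difference was 0.04 ± 0.12, with a 95% interval of -0.22 to 0.31. The dimmer Stat5a probe set, 1450259_a_at, had an interval of -0.47 to 0.30 for the same comparison.

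Stat5b was measured by a pair of probe sets, 1 of which was called; the difference between them was not tested. The brighter, 1422103_a_at, gave 1360.0, 998, 974 and 943 in DN2 cells, 1387, 1333, 977 and 946 in DN3 cells and 1153, 1152, 928 and 952 in DN4 cells, with sorts 1 and 2 above sorts 3 and 4 in every stage. Its DN4 minus DN2 difference was -0.02 ± 0.17, with an interval of -0.39 to 0.35. The dimmer, 1422102_a_at, gave 56.9, 76.3, 48.4 and 54.5 in DN2 cells, 86.8, 59.7, 81.9 and 80 in DN3 cells and 96.3, 87.8, 114 and 118 in DN4 cells. All 4 DN4 arrays were above all DN2 and DN3 arrays, and the difference from DN2 was 0.77 ± 0.16 (adjusted p = 0.00404), 1.71-fold higher and the 1 member result called higher. Without normalization between arrays that value was 0.29 and did not pass (adjusted p = 0.408).

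Among the inhibitors, Socs2 (chromosome 10, 95383903 to 95417321), known for restraining growth hormone signals and as a STAT5 target, fell at both steps, with the largest differences of the 22 tested probe sets. Probe set 1418507_s_at gave 313, 244, 430.1 and 408 in DN2 cells, 65.6, 68, 84.4 and 93.2 in DN3 cells and 10.5, 10.5, 0.933 and 11.6 in DN4 cells. Probe set 1449109_at gave 300.5, 193, 341 and 266 in DN2 cells, 73.8, 73.2, 45.1 and 44.4 in DN3 cells and 5.76, 13.5, 9.42 and 10.9 in DN4 cells. On both, the 3 stages formed 3 separate ranges, and every DN4 signal was below the filter level of 20.6.

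DN3 cells differed by -2.07 ± 0.29 and -2.12 ± 0.23 from DN2 cells on these probe sets (adjusted p = 9.84e-04 and 1.29e-04), or 4.19-fold and 4.36-fold lower. DN4 cells differed from DN3 cells by -2.66 ± 0.29 and -2.05 ± 0.23 (adjusted p = 2.33e-04 and 2.49e-04). Since DN4 signals were under the filter level, their folds are given against that level: Socs2 was at least 3.16-fold and 2.41-fold lower in DN4 than in DN3 cells, and at least 13.2-fold and 10.5-fold lower in DN4 than in DN2 cells (adjusted p = 4.33e-07 and 1.51e-07). All 4 sorts showed each of these declines, and no single array ended a call when left out.

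The remaining 4 Socs2 probe sets were dim. Probe set 1442586_at passed on 6 arrays, at 19.8 to 33.7 in DN2, 4.12 to 27 in DN3 and 11.2 to 40.2 in DN4 cells, and was not called. Sets 1446085_at, 1441476_at and 1438470_at passed on 3, 0 and 0 arrays and were not tested.

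Marker sums of mast, natural killer and myeloid cells were also lower in each later stage. The mean sum of B cell markers fell too, at 353, 290 and 279 in DN2, DN3 and DN4 cells, with neighbouring stages overlapping. The remaining lists moved otherwise. The mean sums in DN2, DN3 and DN4 cells were 687, 336 and 799 for dendritic cell markers and 976, 1044 and 698 for gamma-delta T cell markers. Those of erythroid markers were 48.7, 63.0 and 109. The 8 mast cell markers summed to 2827 to 3807 in DN2 cells, 103 to 279 in DN3 cells, 64.8 to 91.9 in DN4 cells, with 6 of the 8 below the filter level in DN2 cells and 7 in each later stage; Cpa3 carried most of the DN2 sum and Mcpt4 was lowest there. The 9 natural killer cell markers summed to 1848 to 2074 in DN2 cells, 521 to 795 in DN3 cells, 134 to 164 in DN4 cells, with 6, 6 and 8 of them below the filter level. Nkg7 held 1642 and Gzmb 228 of the mean DN2 sum of 1957, and Klra8 was lowest. Of the 4 natural killer markers tested between DN3 and DN2 cells, 3 were lower and 1, the perforin gene Prf1, was higher (0.63 ± 0.18, adjusted p = 0.0474). The 12 myeloid markers summed to 1045 to 2204 in DN2 cells, 398 to 543 in DN3 cells and 140.4 to 296 in DN4 cells. Of these markers 3, 6 and 7 were below the filter level. Lyz1 led the DN2 sum with a mean of 689. Csf1r went the other way, with means of 35.0, 44.1 and 48.5 in DN2, DN3 and DN4 cells. The part of other cell types in the result was not tested.

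The log2 ratio of 3' to 5' Gapdh control signals averaged 1.39, 1.04 and 1.16 in DN2, DN3 and DN4 arrays. It was lower in DN3 than in DN2 arrays by a margin that did not pass (-0.35, exact two-sided permutation test, p = 0.114, adjusted 0.343). The DN4 minus DN3 difference in this ratio did not pass either (0.12, exact two-sided permutation test, p = 0.429, adjusted 0.571). With that ratio and the sort both in the fit, the DN3 minus DN2 difference of Socs2 1418507_s_at was -2.24 and was not called (adjusted p = 0.114). The other bright Socs2 probe set, 1449109_at, kept its call between DN3 and DN2 in that fit. All calls of that comparison fell to 384 there.

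**Figure D3:**
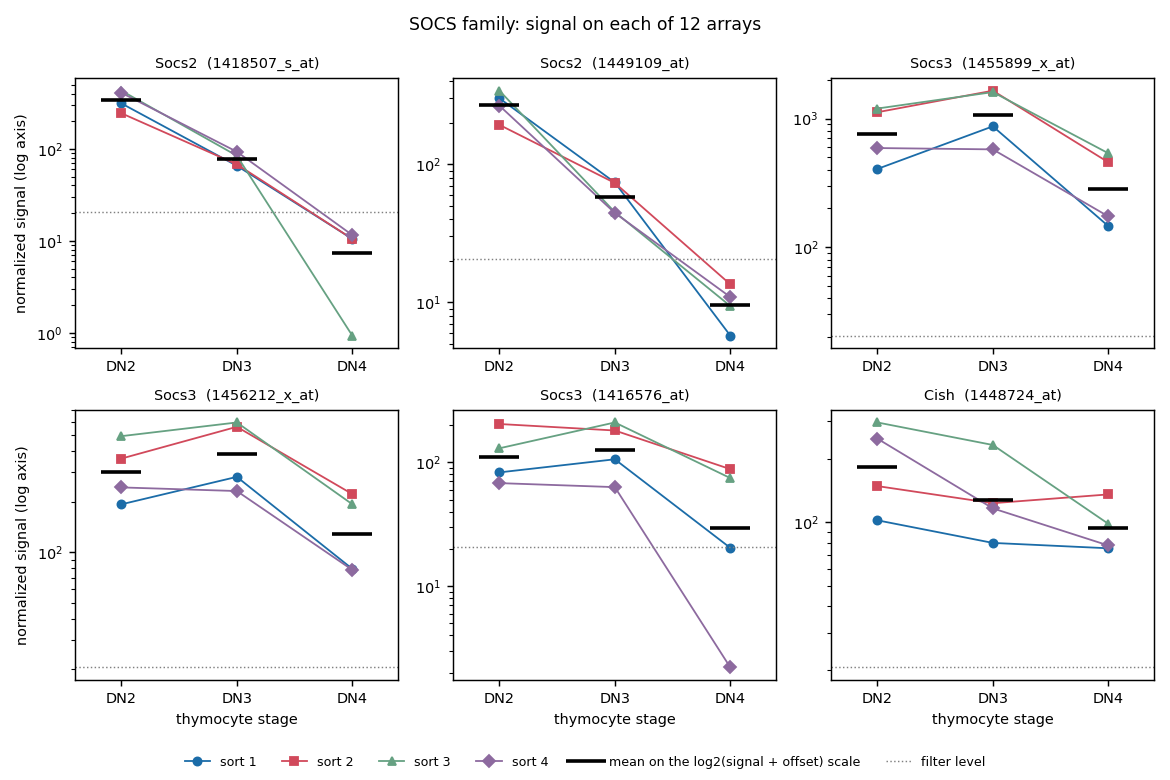
Normalized signal (log axis) of 2 Socs2, 3 Socs3 and 1 Cish probe sets in DN2, DN3 and DN4 cells; each coloured line joins the arrays of 1 sort, black bars are means of log2(signal + 5.57) and the dotted line is the filter level of 20.6. Socs2 steps down at both transitions in every sort. Socs3 drops between DN3 and DN4, with sorts 2 and 3 on top in each stage. Cish spreads widely within DN2 and within DN3.

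Socs3 (chromosome 11, 117966079 to 117970336), the inhibitor of gp130-type receptors and a STAT3 target, was lower in DN4 than in DN3 cells on 2 of its 3 probe sets. The brightest probe set, 1455899_x_at, gave 406, 1119.8, 1196 and 589.8 in DN2 cells, 869.9, 1647, 1606 and 576 in DN3 cells and 146, 457, 538 and 174 in DN4 cells. All DN4 arrays were below all DN3 arrays, while DN2 overlapped both. The suffix x marks probe sets in which some probes can match other sequences.

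The DN4 minus DN3 difference of 1455899_x_at was -1.91 ± 0.50 (adjusted p = 0.0276), 3.75-fold lower. Probe set 1456212_x_at, with 79.6, 222, 193 and 78.4 in DN4 cells against 281, 559, 594 and 232 in DN3 cells, differed by -1.54 ± 0.42 (adjusted p = 0.0346). The dimmer 1416576_at, without the x suffix, differed by -1.91 ± 0.69 and did not pass (adjusted p = 0.0907), at 20.4, 88.1, 74.6 and 2.21 in DN4 cells against 106, 181, 209.8 and 63 in DN3 cells. All 3 probe sets were lower in 4 of 4 sorts. Between DN3 and DN2 cells none was called, with 0.51 ± 0.50 on the brightest (adjusted p = 0.625).

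Sorts 2 and 3 gave the 2 highest signals within every stage on all 3 probe sets. With the sort as a block, 1416576_at passed between DN4 and DN3 (adjusted p = 0.00736), and all 3 passed between DN4 and DN2, at -1.40, -1.20 and -1.73 (adjusted p = 4.56e-04, 3.29e-04 and 0.00571). Without the block those DN4 minus DN2 values did not pass (adjusted p = 0.0517, 0.0501 and 0.0766).

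Without the block, the DN4 minus DN3 calls of the x pair depended on single arrays. They were lost without DN3 array 2, DN3 array 3, DN4 array 1 or DN4 array 4, with values of -1.71, -1.72, -1.60 and -1.67 on 1455899_x_at (adjusted p of 0.0720 to 0.0829) and -1.36, -1.33, -1.32 and -1.31 on 1456212_x_at (0.0888 to 0.101). Between DN4 and DN2, 1455899_x_at and 1456212_x_at each passed without DN2 array 1, DN3 array 4, DN4 array 2 or DN4 array 3 (adjusted p of 0.0284 to 0.0462 over these), and 1416576_at without DN4 array 2 or 3 (0.0341 and 0.0446).

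Cish (chromosome 9, 107296659 to 107302784), the inhibitor named for its induction by cytokines through STAT5, gave 102, 148, 297 and 249 in DN2 cells, 79.8, 123, 232 and 116 in DN3 cells and 75.3, 135, 98.4 and 77.6 in DN4 cells. The stages overlapped, with sort 1 lowest in each. Its differences were -0.50 ± 0.36 between DN3 and DN2, -0.42 ± 0.36 between DN4 and DN3 and -0.92 ± 0.36 between DN4 and DN2 cells, none of which passed (adjusted p = 0.470, 0.473 and 0.0703). DN4 was below DN2 in 4 of 4 sorts, and that value passed with the sort as a block (adjusted p = 0.0201), without DN2 array 1 (-1.20, 0.0260) and without DN3 array 3 (-0.92, 0.0472).

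Socs1 (chromosome 16, 10783808 to 10785536), a direct inhibitor of Janus kinases, gave 66.5, 103, 59.4 and 48.1 in DN2 cells, 61.7, 81.8, 81.4 and 52.8 in DN3 cells and 84.5, 87.7, 101 and 75.3 in DN4 cells. The stages overlapped, and the DN4 minus DN2 difference was 0.35 ± 0.21 with an interval of -0.10 to 0.81 (adjusted p = 0.229). It passed without DN2 array 2, the highest of its stage, at 0.55 (adjusted p = 0.0424). Socs1 and Socs2 thus gave values of opposite sign between DN4 and DN2 cells, and the difference between them was not tested. The sign for Socs1 moved with scaling: without normalization between arrays its value was -0.13 and did not pass (adjusted p = 0.748).

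The rest of the pathway was read from 6 lists, of whose genes 66 passed the filter by their brightest probe set. Between DN3 and DN2 cells 2 were higher and 8 lower, between DN4 and DN3 cells 0 higher and 16 lower, and between DN4 and DN2 cells 2 higher and 22 lower. Over all genes the shares called lower were 5.56%, 8.07% and 15.9%, and those called higher 3.9%, 5.98% and 16.7%. The counts of the single lists below are to be read beside these shares. These counts moved with the setting: without normalization between arrays 0 were higher in the 3 comparisons, and 4 were lower between DN3 and DN2 and 30 between DN4 and DN3. With the sort as a block, 16 were lower and 5 higher between DN3 and DN2. In that fit 21 were lower and 5 higher between DN4 and DN3, and 26 lower and 4 higher between DN4 and DN2.

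Of 17 cytokine receptor chains, 6 fell between DN4 and DN3 cells and 0 rose. Il7r, the interleukin 7 receptor chain, gave 905, 1036, 1321 and 1061 in DN2 cells, 688, 719, 846 and 789.8 in DN3 cells and 316, 368, 356 and 420.2 in DN4 cells. Each stage's range was separate from the next. The DN4 minus DN3 difference was -1.05 ± 0.14 (adjusted p = 7.36e-04), and the DN3 minus DN2 difference of -0.49 ± 0.14 did not pass (adjusted p = 0.0524). Il4ra, the interleukin 4 receptor chain, was lower at both steps, with differences of -1.13 ± 0.21 in DN3 relative to DN2 and -1.67 ± 0.21 in DN4 relative to DN3 cells. Il6ra, the interleukin 6 receptor chain, was also lower in DN3 than in DN2 cells (-0.96 ± 0.26, adjusted p = 0.0386). Il21r and Il27ra rose in DN3 relative to DN2 cells (0.75 ± 0.20 and 0.79 ± 0.22), so that the 4 calls of that comparison were 2 lower and 2 higher, and Il21r was lower again in DN4 than in DN3 cells (-1.10 ± 0.20). Between DN4 and DN2 cells 6 were lower, among them Il2ra (-4.30 ± 0.22), Il4ra (-2.80 ± 0.21), Il7r (-1.55 ± 0.14) and Crlf2 (-1.26 ± 0.16), the receptor chain for thymic stromal lymphopoietin. Il2ra encodes CD25, on which DN4 cells were sorted as negative, so its fall in DN4 cells was set by the sort. It is still counted in the calls of this list and of the 6 lists together.

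Of the other kinases and STATs, Stat4, which acts downstream of interleukin 12, had 1892, 845, 677 and 654 in DN2 cells, 633, 356, 465 and 356 in DN3 cells and 227, 189, 220.2 and 161 in DN4 cells. The DN4 minus DN3 difference was -1.13 ± 0.31 (adjusted p = 0.0329) and the DN4 minus DN2 difference -2.18 ± 0.31 (adjusted p = 2.71e-04). Tyk2 and Stat6 were not called in any comparison, with DN4 minus DN2 differences of -0.23 ± 0.15 and 0.19 ± 0.13; Stat2 did not pass the filter. Socs4, Socs5, Socs6 and Socs7 had 0 calls in the 3 comparisons, with DN4 minus DN2 differences of -0.02 ± 0.13, -0.48 ± 0.28, -0.17 ± 0.18 and 0.00 ± 0.17.

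Among 13 other restraints, 5 were lower in DN4 than in DN2 cells, led by Pias3 (-0.72 ± 0.18), Ptpn11 (-0.43 ± 0.12), Ptpn1 (-0.42 ± 0.11) and Sh2b3 (-0.71 ± 0.20), the adaptor LNK. Sh2b3 was the 1 called between DN3 and DN2 cells (-0.78 ± 0.20), and the ubiquitin ligase gene Cblb (-1.15 ± 0.23) and Ptpn1 (-0.50 ± 0.11) were those called between DN4 and DN3 cells, all lower. Among 11 adaptors, Gab2, a docking protein for phosphatases and PI3 kinase, was lower at both steps, with differences of -2.32 ± 0.22 in DN3 relative to DN2 and -1.79 ± 0.22 in DN4 relative to DN3 cells (adjusted p = 4.64e-05 and 4.37e-04). The other called adaptors were Grb2 between DN3 and DN2 (-0.37 ± 0.10), Crebbp, a histone acetyltransferase gene, between DN4 and DN3 (-0.43 ± 0.11) and between DN4 and DN2 (-0.46 ± 0.11), and Pik3r1 between DN4 and DN2 (-1.11 ± 0.25), all lower.

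Of 18 genes known as STAT5 targets, 7 were lower and 2 higher in DN4 than in DN2 cells, where 15.9% of all genes were lower and 16.7% higher. Bcl2, which protects cells from apoptosis, gave 1518, 2039, 1681 and 1382 in DN2 cells, 749.6, 1138, 929 and 582 in DN3 cells and 216, 267, 296 and 216 in DN4 cells. The stages did not overlap, and it was lower at both steps, with differences of -0.99 ± 0.21 in DN3 relative to DN2 and -1.72 ± 0.21 in DN4 relative to DN3 cells (adjusted p = 0.0110 and 3.45e-04). Gzmb, Cdkn1a and Ccnd2 were also lower in DN4 than in DN2 cells (-4.25 ± 0.36, -3.40 ± 0.36 and -1.43 ± 0.20), and in DN4 than in DN3 cells (-2.11 ± 0.36, -2.63 ± 0.36 and -1.45 ± 0.20). Between DN3 and DN2 cells 3 were lower, Bcl2, Gzmb (-2.14 ± 0.36) and the cytokine gene Osm (-1.16 ± 0.26). Gzmb also stands among the natural killer markers above. The kinase genes Pim3 and Pim2 were higher in DN4 than in DN2 cells (0.70 ± 0.16 and 0.59 ± 0.18).

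**Figure D4:**
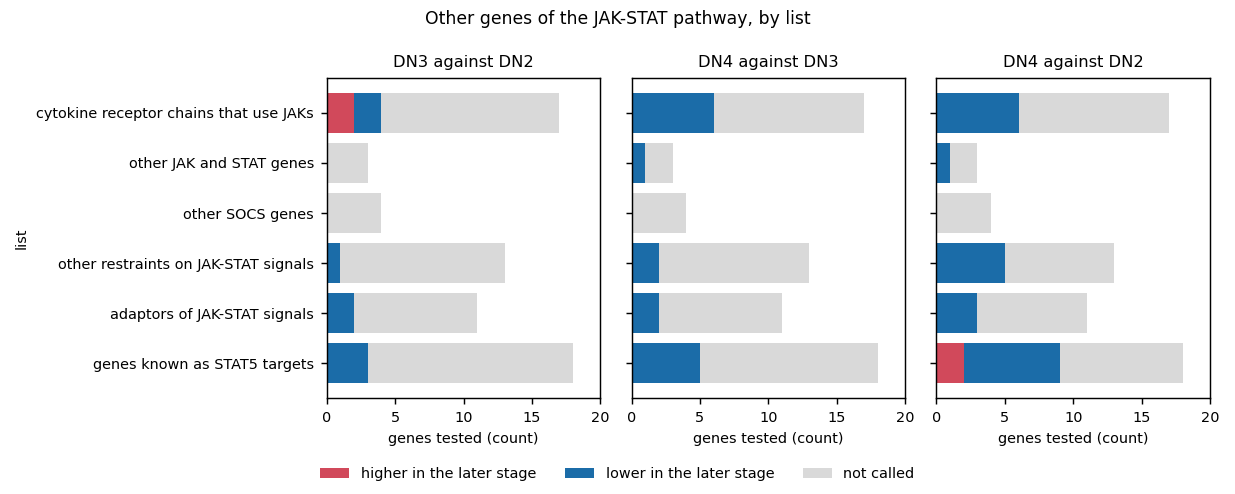
Number of tested genes in 6 pathway lists that were called higher (red), lower (blue) or neither (grey) in the later stage, for the 3 comparisons, by the brightest probe set of each gene. Lower calls outnumber higher ones in all lists between DN4 and DN3 cells except the other SOCS genes, which have 0 calls.

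Some other genes followed a member closely over the 12 arrays, as a description over 11167 genes that share the same arrays and stages. Socs2 was most like Ifitm2 (Pearson's r = 0.984), 5430427O19Rik (0.981) and Serpinb1a (0.979), and Serpinb1a averaged 10.26, 6.95 and 3.58 on the log2 scale in DN2, DN3 and DN4 cells. Stat3 was most like Elk4, Capzb and Baz2a (0.971, 0.955 and 0.950), and Jak1 most like Tug1, Rasa4 and Vkorc1 (0.958, 0.947 and 0.946). Socs3 was most like Cstb, Kdm7a and Tle3 (0.938, 0.925 and 0.922), and Stat5b most like Cyld, Rbak and Rbm6 (0.914, 0.904 and 0.893). Each member was taken by its brightest probe set. For Stat5b that was 1422103_a_at, which was not called, and not 1422102_a_at, which was called higher.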

How the data were processed

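RNA of 12 sorted samples was hybridized to 12 arrays. The authors deposited an intensity per probe set and array, on a linear scale, from GCOS (named in the submitters' processing notes); which version, algorithm and scaling were used is not stated there. Groups and sort numbers came from the labels.

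Probe sets were named from the platform annotation, with symbols updated through Entrez identifiers to RefSeq (GRCm38.p6) for 34754 of 34958 with 1 symbol. Signals were quantile-normalized over all 45101 probe sets, the table's 25th percentile (5.57) was added and log2 taken. Probe sets with 1 symbol, other than 64 controls, were kept if above the table's median (log2 4.71) on at least 4 arrays. The linear model of stage means used limma 3.58.1 (R 4.3.3), with two-sided tests. The probe set was the unit, because the rule takes every one; other genes were represented by their brightest. The step was tested on simulated data. Precision is limited by the 4 arrays a stage.

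The labels state that arrays of 1 sort number share their cell source. Deviations from stage means correlated at 0.258 to 0.360 within a sort and at most 0.120 otherwise, and 12 of 12 arrays correlated best with their own sort, so the sort is a true block; it was an alternative fit. P-values of the main fit measure the spread of the 4 arrays within each stage and leave the pairing by sort out. Those of the block fit take the pairing in.

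Named genes were all members, up to 4 called genes per pathway list and comparison by smallest adjusted p, every gene of lists of 5 or fewer, the 3 most correlated genes of called members, and up to 3 of the brightest markers per list; further markers were chosen after their values were seen. A pathway list and 1 gene of another are not reported here. The members and lists were chosen with earlier results of these data known. Of 28 alternatives, 2 were added after seeing the data: the sort block with the Gapdh 3' to 5' ratio, and leaving control probe sets out before normalization. Fits on fewer arrays kept the same probe sets.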

Additional observations from a re-analysis of the deposited data

Results flagged for a closer look

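In 6 of 75 groups of 4 arrays, 1 array stood apart from the other 3 by Dixon's criterion, which chance meets in about 1 group in 20. Values are log2(signal + 5.57). Jak2 1421066_at was 9.14 on DN4 array 2, against 8.86 to 8.88 on the others. Stat5a 1450259_a_at was 6.05 on DN4 array 3, against 6.73 to 6.82. Stat5b 1422103_a_at was 10.42 on DN2 array 1, against 9.89 to 9.97. Socs2 1418507_s_at was 2.70 on DN4 array 3, against 4.01 to 4.10, all below the filter level. Socs2 1442586_at was 4.66 on DN2 array 1, against 5.21 to 5.29. Socs2 1446085_at, which was not tested, was 3.24 on DN4 array 2, against 3.77 to 3.86.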

How the results depend on the processing

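Of 15 called member results, none changed sign in the alternatives run for it (28 for 6 of them, 26 for 8, 25 for Stat5b 1422102_a_at). Socs2 calls were lost in sorts 3 and 4 alone (1418507_s_at, -2.21 between DN3 and DN2 and -3.15 between DN4 and DN3) and in sorts 1 and 2 alone (1449109_at, -1.61 between DN3 and DN2). With the block and Gapdh ratio, 1418507_s_at lost its call between DN3 and DN2 (-2.24). The paired fit (sort as replicate block) kept all 15 and added 7: member probe sets called lower were then 8 between DN4 and DN3 and 10 between DN4 and DN2, and all calls 3333 between DN3 and DN2 and 5130 between DN4 and DN3. The mean of a gene's probe sets turned the uncalled Stat5b 1422103_a_at value between DN4 and DN2 to 0.37 (adjusted p = 0.0260), since it averages in the other Stat5b probe set.

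Between DN3 and DN2 (3 members lower, 1630 calls in all), 1 member was lower with 1 probe set per gene, the mean of probe sets, sorts 1 and 2, sorts 3 and 4, or block with Gapdh ratio; all calls were 775 without normalization, 1040 without the filter, 225 in sorts 1 and 2, 353 in sorts 3 and 4 and 384 with block and Gapdh ratio. Leaving out an array gave 2 to 3 members and 1102 to 1624 calls.

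Between DN4 and DN3 (5 lower, 2541 calls), members lower were 12 without normalization, 3 without the filter, 2 with 1 probe set per gene, the mean or sorts 1 and 2, and 1 in sorts 3 and 4; all calls were 4672 without normalization, 1442 without the filter, 1545 with the mean, 228 in sorts 1 and 2, 201 in sorts 3 and 4 and 3833 with block and Gapdh ratio. Leaving out an array gave 2 to 6 members and 1441 to 2740 calls, the fewest without DN3 array 2.

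Between DN4 and DN2 (6 lower, 1 higher, 6085 calls), members lower were 13 without normalization, 10 with median centring, 10 with trend and robust settings and 3 in sorts 1 and 2; the rise was 0 without normalization, with the 75th percentile filter, 1 probe set per gene or sorts 1 and 2; calls were 3872 with 1 probe set per gene, 3328 with the mean, 2456 in sorts 1 and 2 and 2995 in sorts 3 and 4. Leaving out an array gave 5 to 9 lower, 1 to 2 higher and 4886 to 5979 calls. Fits with fewer arrays or genes have fewer tests or less power by construction; other causes were not tested.

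The balance of calls moved with scaling: 41.6% were higher between DN4 and DN3 after quantile normalization, 1.2% without normalization (median shift -0.43) and 12.4% with median centring (-0.10); between DN4 and DN2 53.7%, 8.55% (-0.30) and 42.6%; between DN3 and DN2 45.5%, 49.3% (0.14) and 57.2% (0.11). Leaving control probe sets out of normalization changed no member call.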
